A study of Gallus gallus with 4 samples.

Results

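The solute carriers are membrane proteins that move amino acids, neurotransmitters, sugars, metals, ions, nucleotides and drugs across cell membranes, and they were followed here in the embryonic chick optic tectum. Members were the gene probes named as a numbered SLC gene or described as a solute carrier, which gave 165 of 42034 gene probes and 147 of 40253 genes. They came from 39 families, and each gene was represented by its brightest probe. Under the file or transcript name alone stood 24 of the 147 genes, and 4 members, SLC4A1AP, SLC9A3R1, SLC9A3R2 and SLC7A6OS, are named after carriers but are not carriers themselves.

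The tectum, the midbrain visual centre of birds, was cut into anterior and posterior pieces or into medial and lateral pieces, and the RNA of 60 pieces was pooled for each channel of a two-colour array. There were 4 arrays, with 1 for each of anteroposterior HH35, anteroposterior HH37, mediolateral HH30 and mediolateral HH35, where HH is the Hamburger-Hamilton stage of the embryo. All embryos were Gallus gallus, and the labels give no treatment, genotype or strain. With 1 array a group and dyes never swapped, there is no replicate of any ratio, and an effect of the dye on a probe cannot be told apart from a difference between pools.

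Some amino acid carriers of the SLC7 family, SLC7A5 among them, exchange amino acids as light chains joined to a heavy chain. Carriers of the SLC1 and SLC6 families, among others, take up glutamate, GABA and glycine with sodium, which ends transmission at synapses. Zinc leaves the cytosol through SLC30 proteins and enters it through SLC39 proteins. Glucose crosses by SLC2 proteins, lactate by SLC16 proteins, and the SLC25 family serves the inner mitochondrial membrane. No sequence is printed, since the sources used here hold no probe or protein sequences.

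All ratios below are log2 of Cy5 over Cy3 after background correction and loess, so a value of 1 is a 2-fold excess in the Cy5 pool. On the anteroposterior arrays Cy5 held the posterior pool and Cy3 the anterior pool. On the mediolateral arrays the dye labels name Cy5 medial, while the medial over lateral ratio of the authors' deposited table runs with Cy3 over Cy5, so these ratios are given by channel and no side is named. Single intensities are scanner units minus local background. A member was measured where at least 1 channel stood clear of its background, and this held for 129 members on the anteroposterior HH35 array and for 118 on each of the other arrays. Both channels stood clear for 111, 82, 102 and 99 members on anteroposterior HH35, anteroposterior HH37, mediolateral HH30 and mediolateral HH35. In 8, 15, 8 and 7 members, in the same order, the computed ratio ran towards a dim channel, so that no size is measured. Counts by side below take in these members by the sign of their computed ratio. On all 4 arrays 107 members were measured, and 13 were not well above background on any, among them the serotonin transporter SLC6A4, the peptide transporter SLC15A1 and the intestinal glucose transporter SLC5A1. The anteroposterior HH37 array was the dimmest, with a median Cy5 foreground of 99 units against 135 to 194 on the others. Over all gene probes the Cy3 channel stood clear more often than Cy5 on each array, in 63.2 to 79.4% of probes against 41.2 to 59.5%.

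The ratios of most solute carriers lay within 2-fold. The median ratio of the members was -0.01 at anteroposterior HH35, -0.05 at anteroposterior HH37, 0.06 at mediolateral HH30 and -0.05 at mediolateral HH35, beside -0.01 to -0.02 over all features. A ratio of 2-fold or more was reached by 2 members on each anteroposterior array, by 1 at mediolateral HH30 and by none at mediolateral HH35. Over all features the share past 2-fold was 0.784%, 1.87%, 0.327% and 0.095% in the same order. Among these members were the transcript TC218221 and SLC36A4 at anteroposterior HH35, SLC7A5 at anteroposterior HH37, and TC218221 again at mediolateral HH30.

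**Figure D1:**
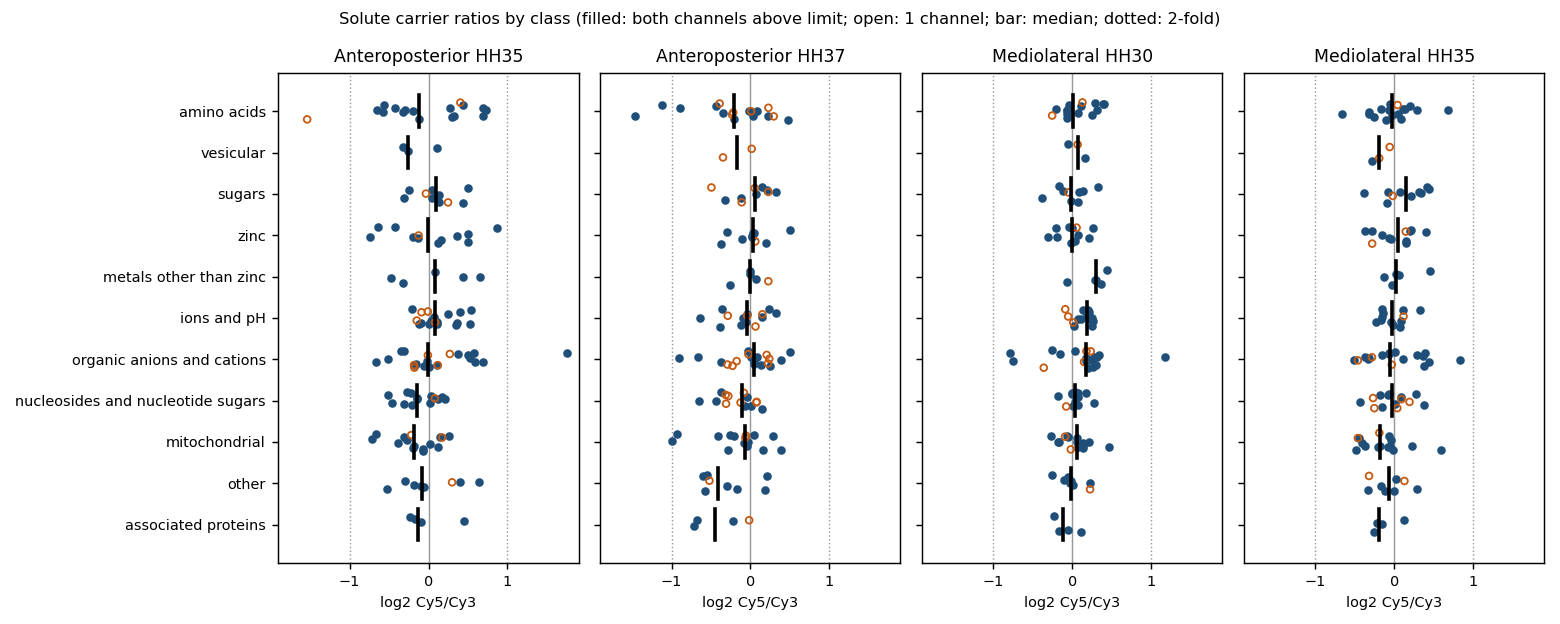
Ratio of each measured solute carrier on each array (x axis, log2 Cy5/Cy3) by the class of what it carries (y axis), with black bars for class medians. Filled points had both channels clear of background, open points 1 channel, and dotted lines mark 2-fold. TC218221 lies farthest right at 1.75 on the anteroposterior HH35 array and SLC36A4 farthest left at -1.54.

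Along the anteroposterior axis, limma with both stages as the observations of the axis called 4 of 114 members tested at an adjusted p under 0.05. The zinc exporter SLC30A2 and TC218221 were higher posteriorly, and the amino acid exchanger SLC7A5 and the fatty acid transport protein SLC27A1 were higher anteriorly. Over all 24287 features the test called 5.67%, of which 0.498% were higher posteriorly and 5.18% higher anteriorly, and the members' shares were 1.75% in each direction. At an unadjusted p under 0.05 there were 13 members higher posteriorly and 22 higher anteriorly, 30.7% of those tested against 27% of all features, of which 8.63% were posterior and 18.3% anterior. The ratios of 31 members were above 0 at both stages and those of 43 below 0, so that 64.9% kept their side, beside 67.7% of all features, 32.8% above and 34.9% below. Over members, Pearson r was 0.33 between both anteroposterior arrays and 0.26 between both mediolateral arrays. Across the axes, mediolateral HH35 had r of 0.62 with anteroposterior HH37 and 0.53 with HH35. Mediolateral HH30 had 0.12 and 0.40. Over all features r was 0.44 and 0.26 within the axes and 0.02 to 0.63 across them. The stages of an axis were thus not always closer to each other than to the other axis.

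SLC30A2 carries zinc out of the cytosol into vesicles, a role known from mammalian mammary gland. Its posterior and anterior pools read 1045 and 714 units at HH35 and 253 and 242 at HH37. Log2 ratios after loess were 0.87 and 0.50, both above 0, while the units before loess were close at HH37. Their mean over n = 2 arrays was 0.68 (SE 0.15, limma with the variance shared by both axes, adjusted p = 0.028). On the mediolateral arrays its ratios were -0.02 at HH30 and 0.15 at HH35, so both pools were close. In the authors' deposited table its anterior over posterior ratio was 0.483 at HH35 and 0.566 at HH37.

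A second transcript described as SLC30A2, TC202263, had its own probe. Its anteroposterior ratios were 0.49 and 0.19, with a mean of 0.34 (SE 0.16, limma, adjusted p = 0.18). Both probes thus lay on the posterior side at both stages, and that of TC202263 did not pass the test. TC202263 also lay on the Cy5 side on both mediolateral arrays, at 0.40 at HH35, and a dye effect of its probe was not tested.

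TC218221 is described in the files as member 4 of family 10, SLC10A4, which in rodents sits on synaptic vesicles of cholinergic and monoaminergic neurons. Its pools read 259 posterior and 49 anterior units at HH35 and 59 and 49 at HH37, where the posterior channel was not well above background and no size is given. The fit took the computed ratios of 1.75 and 0.22 and gave a mean of 0.99 (SE 0.26, limma, adjusted p = 0.044). Most of that mean came from HH35, and without the HH35 array the adjusted p was 0.52. On the mediolateral arrays the Cy5 pool read 246 against 78 units at HH30 and 223 against 100 at HH35, ratios of 1.18 and 0.83. TC218221 thus read higher in Cy5 on all 4 arrays, at anteroposterior HH37 without that channel being clear of background, and a dye effect of its probe was not tested.

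SLC7A5 is the light chain of a heteromeric exchanger that brings large neutral amino acids into cells, at the blood-brain barrier among other places. Its posterior and anterior pools read 5437 and 8193 units at HH35 and 448 and 1345 at HH37. The ratios were -0.43 and -1.12, with a mean of -0.77 (SE 0.17, limma, adjusted p = 0.028). The anterior pool was the brighter at both stages, past 2-fold at HH37. Mediolateral ratios were -0.07 and -0.25.

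SLC27A1 moves long-chain fatty acids into cells. It read 1644 posterior and 2962 anterior units at HH35, and 299 and 645 at HH37. Its ratios of -0.52 and -0.55 were nearly equal at both stages, and the mean was -0.53 (SE 0.14, limma, adjusted p = 0.048). On the mediolateral arrays the pools did not part, with 423 units in each at HH30 and 228 against 233 at HH35. The other measured member of its family, SLC27A4, had anteroposterior ratios of -0.06 and -0.60, while its second probe gave -0.35 and -0.14.

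These 4 calls were close to the threshold. With plain background subtraction or with the series' value table in place of the spot intensities, 0 members were called (27 and 21 at an unadjusted p under 0.05). Over all features these settings called 11 and 0. With median centring in place of loess 30 of 114 members were called, 1 higher posteriorly and 29 higher anteriorly, beside 5144 of 24287 features. There the mean of SLC30A2 was 0.34 (limma, adjusted p = 0.17) and its call was lost, while TC218221, SLC7A5 and SLC27A1 were called. Over the alternatives run, SLC30A2 was called in 3 of 10, SLC7A5 in 6 of 10, TC218221 in 2 of 9 and SLC27A1 in 1 of 10. Median centring moved the median of all features at anteroposterior HH37 to -0.19.

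**Figure D2:**
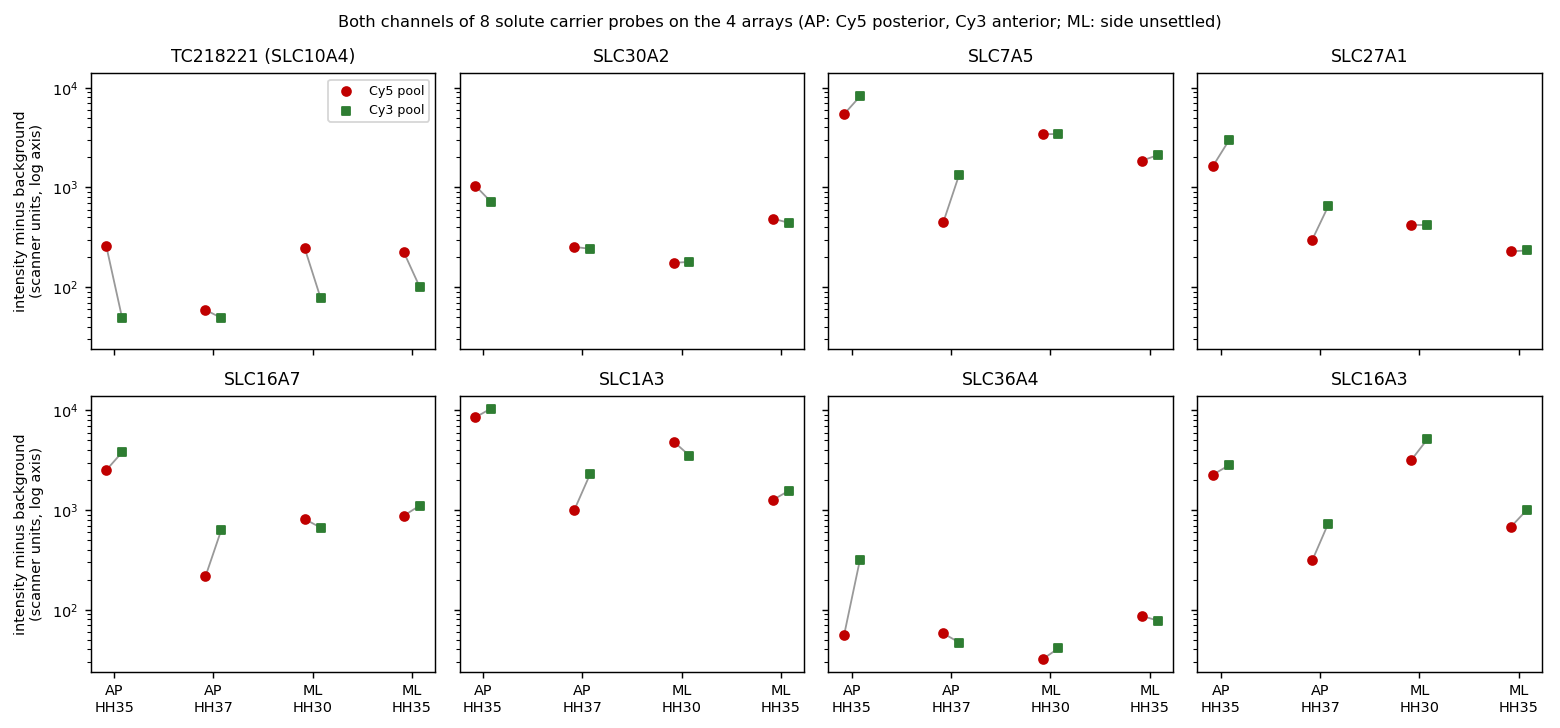
Intensity minus background (y axis, scanner units, log scale) of 8 solute carrier probes in the Cy5 pool (circles) and Cy3 pool (squares) on the 4 arrays (x axis). The posterior pool of SLC30A2 read above the anterior pool at HH35 and close to it at HH37, before loess. That of SLC7A5 and SLC27A1 read below it at both stages. TC218221 read higher in Cy5 on every array, but at anteroposterior HH37 that channel was not clear of background.

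The carriers of transmitters lay on both sides, and none of them passed the test. SLC1A3, the glutamate transporter of radial glia and astrocytes, read 8522 posterior and 10466 anterior units at HH35 and 1007 and 2322 at HH37, ratios of -0.20 and -0.90 with an adjusted p of 0.11 in limma. No other SLC1 gene was a member by the rule.

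SLC17A6, which loads glutamate into synaptic vesicles, had a ratio of -0.32 at HH35. At HH37 its computed anterior excess was 1.27-fold, with the posterior channel not well above background. SLC6A11, a GABA transporter, stood at 0.30 at HH35 and -0.35 at HH37. SLC6A12, which carries betaine and GABA, stood at 0.73 and -0.21, and the glycine transporter SLC6A9 at 0.69 and 0.09. So SLC6 members lay on both sides at HH35, 4 above 0 and 2 below, while at HH37 all but SLC6A9 of the 5 measured lay below 0. The noradrenaline transporter SLC6A2 was measured at anteroposterior HH35 and mediolateral HH30 alone, in both cases with a channel not well above background. SLC17A5, which exports sialic acid from lysosomes, stood at -0.26 at HH35. SLC18A2, which loads amines into vesicles, had a ratio of 0.11 at anteroposterior HH35 and was not well above background at HH37.

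Neuron markers were brighter in the anterior pool. SLC6 members lay on both sides at HH35, and at HH37 all measured but SLC6A9 lay on the anterior side. A probe was found for 8 of 9 listed neuron markers, and all 8 were brighter in the anterior pool at both stages, with medians of -0.75 at HH35 (range -1.15 to -0.27) and -1.50 at HH37 (range -2.17 to -0.67). At an adjusted p under 0.05 in limma, 7 of the 8 were called higher anteriorly, beside 5.18% of all features. Of the 8 progenitor and radial glia markers 7 were brighter posteriorly at HH35, with a median of 0.66, and 2 of 7 measured at HH37. MSI1 was the 1 called of 7 tested, higher posteriorly at 0.69 and 0.63 (limma, adjusted p = 0.026), beside 0.498% of all features. The haemoglobin gene HBBA, a marker of red cells, stood at 0.03 and -1.68, while HBE1, the other red cell marker measured, stood at 0.30 and 0.43. Of the choroid plexus and ependyma markers, TTR and KL stood clear of background on none of the arrays, while AQP1 stood at -0.10 and 0.33. The part of cell makeup in the transporter ratios was not tested, and fewer cells of a type cannot be told apart from less RNA per cell in pooled tissue.

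**Figure D3:**
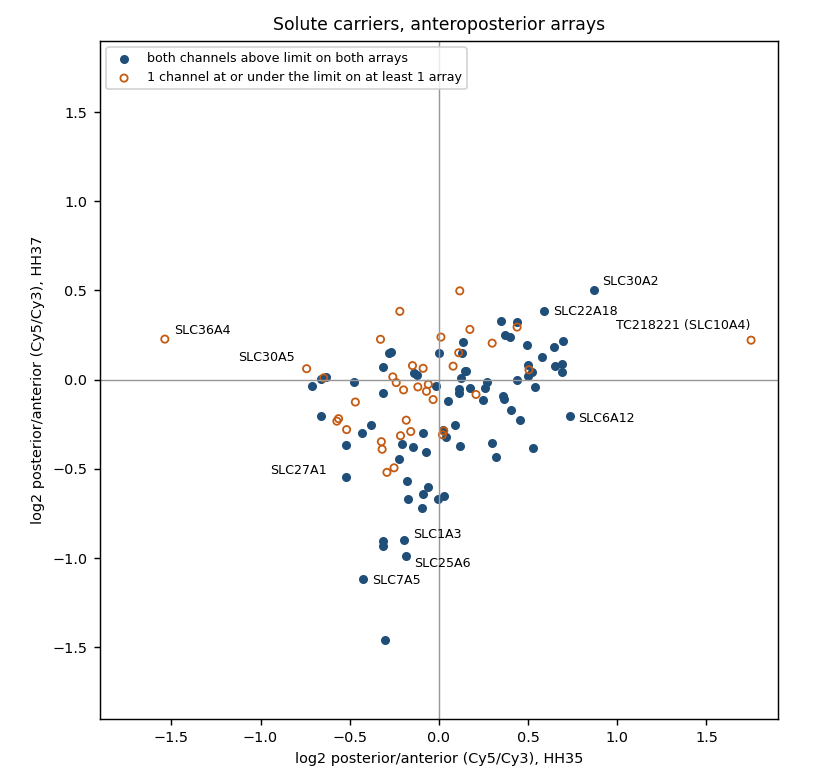
Anteroposterior ratio of each solute carrier at HH35 (x axis) and at HH37 (y axis), both as log2 posterior over anterior. Filled points had both channels clear of background on both arrays. SLC30A2 stands apart at 0.87 and 0.50, SLC7A5 lies at -0.43 and -1.12, and SLC36A4 and TC218221 lie at the far left and right.

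Among the other amino acid carriers, SLC36A4, of a family that couples transport to protons, was higher anteriorly at HH35, where its posterior pool was not well above background. Against the lowest clear posterior signal of the array its anterior excess was 2.67-fold. SLC36A4 read 56 posterior and 319 anterior units at that stage and 58 and 47 at HH37, where no size can be given. SLC7A1, which imports arginine and lysine, had a ratio of -0.32 at HH35, where its second probe gave 0.02. Its computed ratio at HH37 was -0.39, with the posterior channel not well above background. SLC38A2, a sodium-coupled carrier of glutamine and other neutral amino acids, stood at -0.56 at HH35, and SLC6A15, which prefers branched-chain amino acids, at -0.57. SLC38A4, which neighbours SLC38A2 among the protein-coding genes of a table of chicken genes, was measured at HH37 and mediolateral HH35 alone, at 0.48 and 0.68. On the posterior side stood SLC7A7 with 0.44 at HH35 and SLC43A3, placed in this class by its family and not by its own substrate, with 0.69 and 0.22. Of 16 members of the amino acid class tested along this axis 5 had a mean above 0 and 11 below, and SLC7A5 alone was called. The median of these means was -0.19, beside -0.009 over all features.

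Zinc carriers lay on both sides. At HH35 6 of 12 were above 0 and 6 below, and at HH37 the counts were 7 and 3, where 48.4% and 47.5% of all features lay above 0. SLC30A5, which supplies zinc to the secretory pathway, read 778 posterior and 1719 anterior units at HH35, a ratio of -0.74, and 58 and 63 at HH37, with no size. The HH37 count above 0 takes in SLC30A5 by its computed ratio. The importer SLC39A12, which is rich in mammalian brain, went from -0.63 at HH35 to 0.02 at HH37. SLC39A6 stood at -0.43 and -0.30, and SLC39A3 at 0.50 and 0.02. SLC30A6 stood at 0.15 and 0.05, SLC30A9 at 0.12 and -0.37, SLC39A9 at -0.14 and 0.03 and SLC39A13 at 0.36 and -0.11. The sign thus differed between members or stages, but the second probe of SLC30A9 lay below 0 at both stages, at -0.31 and -0.23. A pair of genes was measured in part: SLC30A7, of the Golgi, stood at -0.20 at HH35 and was not well above background at HH37, and LOC428775, described as SLC39A8, was clear of background in 1 channel at HH35. SLC30A2 was the 1 member called of 10 zinc carriers tested.

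Sugar carriers were close to even. SLC2A1, the glucose transporter of the blood-brain barrier, read 459 posterior and 723 anterior units at HH35, a ratio of -0.25, and was at least 1.25-fold higher anteriorly at HH37 (mean -0.37, SE 0.15, limma, adjusted p = 0.13). SLC2A12, a glucose transporter of the same family, stood on the other side with 0.44 and 0.32 (limma, adjusted p = 0.13). SLC2A12 also lay on the Cy5 side of the mediolateral arrays, at 0.14 at HH30 and 0.43 at HH35. SLC2A2, the low-affinity transporter of liver and pancreatic islets, had ratios of 0.13 and 0.21, and the intracellular SLC2A8 of 0.04 and -0.32. LOC416915, described as SLC2A11, stood at -0.32 and 0.07. SLC2A10 had both channels clear of background at mediolateral HH30 alone, at -0.38, and TC191874, described as SLC2A9, at mediolateral HH35 alone, at 0.31. Of 9 members of the sugar class tested, which also takes in the SLC5 and SLC37 families, 4 had means above 0 and 5 below, with none called. Endothelial markers had medians of 0.10 over 6 measured at HH35 and -0.28 over 5 at HH37, and their part in the ratio of SLC2A1 was not tested.

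**Figure D4:**
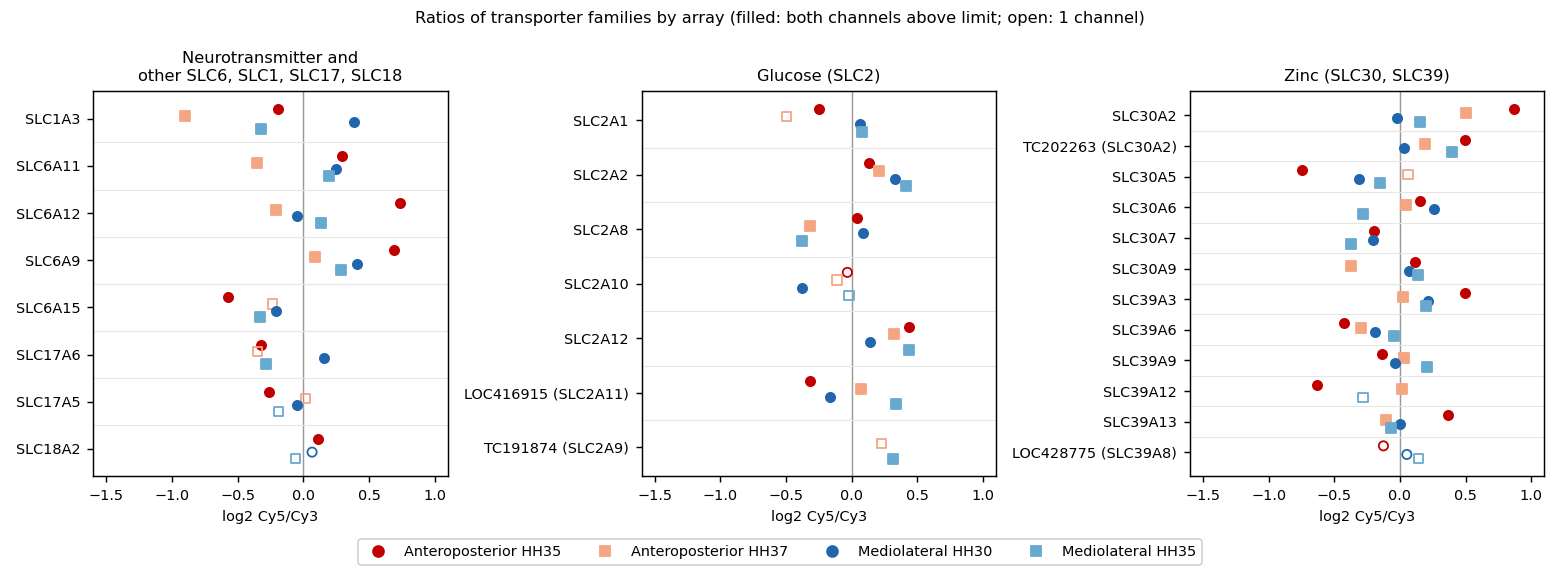
Ratios (x axis, log2 Cy5/Cy3) of transmitter, glucose and zinc carriers on the 4 arrays, with circles for the earlier and squares for the later stage of an axis. Open symbols had 1 channel clear of background. SLC1A3 lies at -0.90 at anteroposterior HH37, while SLC30A2 is the zinc carrier farthest right at 0.87.

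Members of the SLC16 family, which takes in the lactate and pyruvate carriers along with others, lay on both sides. SLC16A7, the high-affinity form of neurons, read 2520 posterior and 3813 anterior units at HH35, with ratios of -0.31 there and -0.90 at HH37 (adjusted p = 0.067, limma). SLC16A3, which exports lactate from glycolytic cells, stood at -0.01 and -0.67, and the widespread SLC16A1 at 0.69 and 0.04. SLC16A14, an orphan member, stood at -0.52 and -0.37, and SLC16A13 and SLC16A4 at 0.58 and 0.52 at HH35. Of 8 family members tested 3 had means above 0 and 5 below, and none was called.

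The other carriers of organic ions lay on both sides. SLC22A18 had ratios of 0.59 and 0.39 (mean 0.49, SE 0.15, limma, adjusted p = 0.075), although its second probe gave 0.06 and -0.11. SLC22A13 stood at 0.50 at HH37 and the sulphate transporter SLC13A4 at 0.37 and 0.25. SLC22A4 and the carnitine transporter SLC22A5, neighbours in the gene table, stood at 0.50 and -0.16 at HH35. Of the organic anion transporting polypeptides, SLCO4A1 and SLCO5A1 stood at -0.18 and -0.35 at HH35, and the thyroid hormone carrier SLCO1C1 was measured at anteroposterior HH37 alone, in 1 channel. For the SLCO family 4 of 7 members were measured at HH35 and 2 at HH37.

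Mitochondrial carriers had a median of -0.19 at HH35 and -0.07 at HH37, and 10 of 15 had means below 0, with none called. The median of these means was -0.13, beside -0.009 over all features. The phosphate carrier SLC25A3 read 14667 posterior and 18224 anterior units at HH35 and 1857 and 4109 at HH37, ratios of -0.31 and -0.93. Its adjusted p in limma was 0.051, just outside the threshold. SLC25A6, an ADP/ATP carrier, read 31254 against 32692 and 4536 against 9620 units, ratios of -0.19 and -0.99, while its relative SLC25A4 stood at 0.11 and -0.08. SLC25A16 went from -0.71 to -0.04 and the pyrimidine nucleotide carrier SLC25A36 from -0.66 to -0.20. The ratios of SLC25A3 and SLC25A6 were thus farther from 0 at HH37, and those of SLC25A16 and SLC25A36 at HH35.

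Carriers of the SLC35 family, which takes in nucleotide sugar carriers that feed glycosylation in the Golgi, had means below 0 in 10 of 12 tested. The median of these means was -0.23, beside -0.009 over all features. Their ratios ran from -0.52 for SLC35A3 to 0.21 for SLC35B1 at HH35 and from -0.65 for SLC35B4 to 0.15 for SLC35B3 at HH37, and none was called. Carriers of ions and protons had a median of 0.08 at HH35 and -0.05 at HH37. SLC4A7, a sodium bicarbonate cotransporter, stood at 0.54 and -0.04, the mitochondrial sodium/calcium exchanger SLC8B1 at 0.35 and 0.33, and the neuronal exchanger SLC24A2 at -0.09 and -0.64. TC226517, described as the iron importer SLC11A2, stood at 0.65 and 0.08, the copper importer SLC31A1 at -0.47 and -0.01, and the thiamine transporter SLC19A3 at 0.64 and 0.18. The sulphate and oxalate exchanger SLC26A6 lay above 0 on all 4 arrays, at 0.40, 0.24, 0.25 and 0.32, and the ascorbate transporter SLC23A2 below 0 on all 4, at -0.18, -0.57, -0.02 and -0.33. None of these passed the test.

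Between HH35 and HH37 the anteroposterior ratio moved by 2-fold or more in 3 of 114 members, 2.63% against 1.96% of all features. Among them, TC218221 moved by -1.53 and SLC36A4 by 1.76, but in both at least 1 channel was not well above background, so these 2 sizes are not measured on both sides. Below 2-fold, SLC6A12 moved by -0.94 and SLC25A6 by -0.80, and SLC25A16 by 0.68. The computed movement of SLC30A5 was 0.80, but its HH37 ratio has no size. With 1 array a stage these movements had no test.

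Along the mediolateral axis 0 of 111 members passed limma at an adjusted p under 0.05, and 5 had an unadjusted p under 0.05, 4.5% against 8.43% of all features, which split into 4.89% on the Cy5 side and 3.54% on the Cy3 side. Over all 25150 features 0.00795% were called. The largest means were those of TC218221, at 1.01 (SE 0.26, limma, adjusted p = 0.38), and of SLC16A3. SLC16A3 read 3201 in Cy5 and 5147 in Cy3 at HH30 and 676 and 999 at HH35. Its ratios of -0.75 and -0.52 gave a mean of -0.64 (SE 0.17, limma, adjusted p = 0.39), and the Cy3 pool was the brighter at both stages.

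The other mediolateral members with an unadjusted p under 0.05 were on the Cy5 side. TC226517, the SLC11A2 transcript, read 6500 in Cy5 and 4446 in Cy3 at HH30 and 8232 and 5077 at HH35, ratios of 0.44 and 0.45. SLC2A2 stood at 0.33 and 0.41, and SLC16A4 at 0.33 and 0.38. Like TC218221, all 3 were also above 0 at both stages of the other axis, where Cy5 held the posterior pool. On all 4 arrays 16 of 107 members lay on the Cy5 side and 16 on the Cy3 side, 29.9% together against 33.4% of all features, 16.9% on the Cy5 and 16.6% on the Cy3 side.

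SLC6A9 was on the Cy5 side at 0.41 and 0.29, and SLC33A1, which takes acetyl-CoA into the endoplasmic reticulum, on the Cy3 side at -0.25 at HH30. SLC1A3 stood at 0.38 at HH30 and -0.32 at HH35. SLC22A5 read 171 in Cy5 and 338 in Cy3 at HH30, a ratio of -0.79, and 286 and 290 at HH35, a ratio of 0.01. No member's mediolateral ratio moved by 2-fold between the stages, against 0.577% of all features. SLC39A12 was not compared, since its brightest probe was not clear of background at HH30. Its second probe stood at 0.87 at HH30 and at -0.39 at HH35, where the Cy5 channel was not clear of background.

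By class, 13 of 15 ion and proton carriers lay on the Cy5 side at mediolateral HH30, with a median of 0.19, and 5 of 12 at HH35. The mitochondrial carriers had 8 of 15 on the Cy5 side at HH30 and 2 of 15 at HH35, where the median was -0.18. Of all features 47% lay on the Cy5 side at HH30 and 47.4% at HH35, and of all members measured 60.2% and 41.5%. The SLC16 family had 9 of 10 on the Cy5 side at HH30, with a median of 0.25, and 3 of 8 at HH35. SLC25A37, the mitochondrial iron importer of red cell precursors, had a ratio of 0.60 at HH35, where HBE1 stood at 0.49 and HBBA at -0.87. Neuron markers had a median of 0.20 at HH30, 7 of 8 on the Cy5 side, and of -0.36 at HH35 with all 8 on the Cy3 side. SLC1A3 and SLC17A6 lay on those sides at both stages, while SLC6A9 and SLC6A11 (0.25 and 0.20) stayed on the Cy5 side. Of the progenitor and radial glia markers 6 of 8 lay on the Cy3 side at HH30, with a median of -0.22, and 6 of 8 at HH35, with a median of -0.12. The part of cell makeup in these ratios was not tested.

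**Figure D5:**
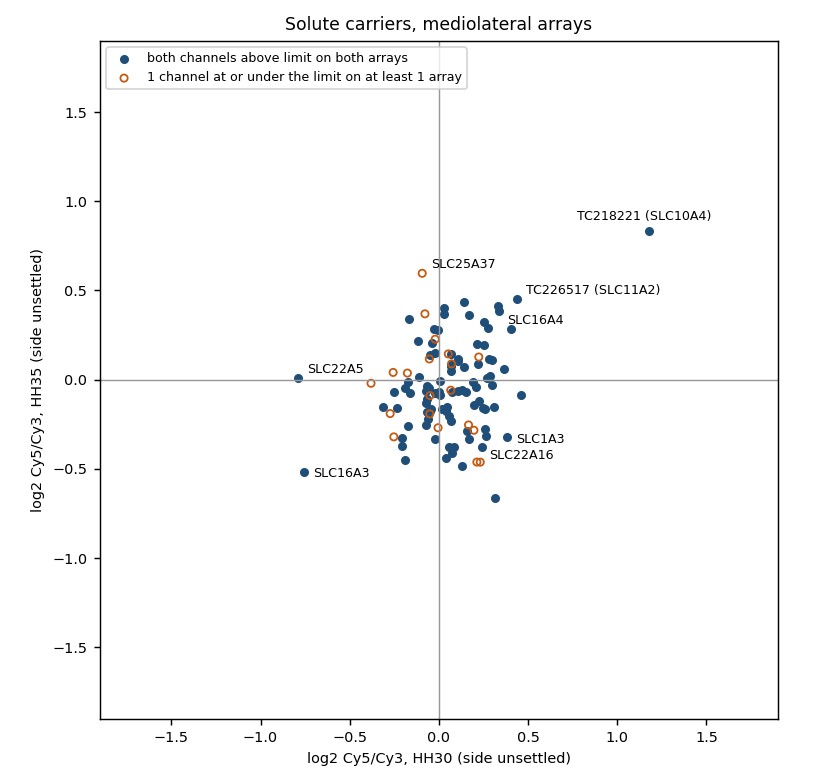
Mediolateral ratio of each solute carrier at HH30 (x axis) and HH35 (y axis) as log2 Cy5 over Cy3, with the side of each channel unsettled. Filled points had both channels clear of background on both arrays. TC218221 lies apart at 1.18 and 0.83 and SLC16A3 at -0.75 and -0.52.

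The difference between the axes, in which a dye effect equal on all arrays cancels, was called for 0 of 107 members and 0 of 22346 features. At an unadjusted p under 0.05 there were 4 members, 3.74% against 9.52% of all features. SLC30A2 was higher by 0.62 (SE 0.22, limma, adjusted p = 0.38) on the anteroposterior than on the mediolateral arrays. SLC7A5, SLC27A1 and SLC16A7 had differences of -0.61, -0.53 and -0.58, with adjusted p of 0.45, 0.41 and 0.50 in limma. That of TC218221 was -0.02 (SE 0.37, limma, adjusted p = 0.997), with means of 0.99 and 1.01 on the 2 axes.

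Both pools of an array together make up the tectum, so the mean intensity of both channels gave a level per stage. No member's level passed limma between any pair of stages, and the smallest adjusted p was 0.56, between HH30 and HH37. At an unadjusted p under 0.05 there were 1, 2 and 7 of 107 members for HH35 against HH30, HH37 against HH35 and HH37 against HH30, beside 1.26%, 1.11% and 7.07% of all features. Levels of a single feature on the 2 arrays at HH35 differed with an SD of 1.12 on the log2 scale over all features and 1.19 over members, and this fit had 1 residual degree of freedom.

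The glucose transporter SLC2A2 had quantile-normalised log2 levels of 8.02 at HH30, 7.95 and 9.33 on the HH35 arrays and 10.87 at HH37, a difference of 2.86 between HH30 and HH37 (SE 1.03, limma, adjusted p = 0.56). SLC16A4 had levels of 8.83, of 9.88 and 12.04, and of 12.34 in the same order. The HH37 level was above both HH35 arrays and HH30 in each. SLC16A3 ran the other way, from 12.09 at HH30 to 10.46 and 9.91 at HH35 and 9.90 at HH37, and SLC25A3 from 14.28 to 13.54 and 12.84 and then 12.03. For the sialic acid nucleotide carrier SLC35A1 they were 10.72, 9.55 and 10.19, and 8.10.

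Several probes were present for 17 of the genes, and for 14 of them more than 1 was measured on at least 1 array. Their signs were equal in 21 of 40 gene and array pairs, with a median spread of 0.30 between the highest and lowest probe. The widest spread, 1.46, was that of the scaffold protein SLC9A3R2 at anteroposterior HH35, whose probes ran from -1.001 to 0.46. The probes of SLC27A4 had the same sign as each other on each of the 4 arrays, above 0 at mediolateral HH30 and below 0 on the others. Ratios near 0 in members with a single probe are to be read against that spread.

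A further 47 carrier genes were named through the gene table alone and are not members by the rule. Of 34 tested along the anteroposterior axis, 1 was called higher posteriorly, SLCO2B1 at 0.55 (SE 0.15, limma, adjusted p = 0.045), and 1 higher anteriorly, SLC25A46 at -0.65 (SE 0.15, limma, adjusted p = 0.032). Over all features the test called 5.67%, of which 0.498% were higher posteriorly and 5.18% higher anteriorly. The glial glutamate transporter SLC1A2 stood at -0.80 at HH35 and 0.05 at HH37, the taurine transporter SLC6A6 at -0.17 and -0.998. Among 10 tested partners of transport, such as sodium pump subunits and enzymes that make or break down transmitters, the pump subunit ATP1B3 was called higher anteriorly with a mean of -0.57 (limma, adjusted p = 0.041). The same shares of all features stand beside this call. The GABA-synthesising enzyme GAD1 stood at -0.20 and -0.93, glutamine synthetase GLUL at -0.22 and -1.17, and the glial water channel AQP4 at 1.29 and -0.17.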

How the data were processed

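Total RNA of the pools was hybridised to 4 two-colour arrays. The deposited spot tables hold scanner intensity values, not normalised, with the percent of saturated pixels and spot flags; no solute carrier spot used was saturated. The submitters' processing notes name Agilent Feature Extraction, although the columns are of the GenePix kind. The authors' deposited table gives the ratio of both pools per probe, and the deposited series value table holds the log2 of that ratio; their normalisation is not given in the sources used here.

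Background was corrected with normexp (offset 50), ratios were fitted with loess (span 0.3, control spots at weight 0) in limma 3.58.1 and R 4.3.3, and a channel was clear where its mean passed the median background by 2.6 background SD. The brightest probe stood for a gene. Where 1 channel was dim, a fold was set against the higher of the dim signal and the lowest clear signal of that channel on the array. That signal is not the limit of the spot itself, so such a fold is not a strict bound. Names came from the files and, for 10088 probes, through a table of chicken genes (assembly GRCg7b), used for names and gene order only. limma was fitted with 1 coefficient per axis over all features measured on both of its arrays, with Benjamini-Hochberg adjustment and a threshold of 0.05. Both stages thus served as the repeats of an axis. The residual variance was shared by both axes, with at most 2 degrees of freedom. It was moderated towards that of all features with a prior of 11.2 degrees of freedom. The SE and p-values thus do not measure the spread of 1 axis alone. Levels were fitted on quantile-normalised mean log2 intensities with 1 coefficient per stage. The number of arrays limits the precision. The scripts were tested on simulated data. Genes were named by a rule on calls, extremes and families, and other genes named were chosen after their values were seen. The members and lists were chosen with earlier results of these data known. Alternatives were other background corrections, centring, filters, variance models, probe rules, the series value table and leaving out each array. Results of 1 member are not reported here.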

Additional observations from a re-analysis of the deposited data

Results flagged for a closer look

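The computed log2 posterior over anterior ratio of SLC36A4 was -1.54 at HH35 and 0.23 at HH37, a difference of 1.76. At neither stage did the posterior channel stand clear of its background, so the HH37 ratio has no measured size or side, and neither has the difference. It was not tested, since each stage had 1 array.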

How the results depend on the processing

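The count of 4 members called along the anteroposterior axis became 0 with plain background subtraction, 0 with the series value table, 0 with no filter on dim probes (27, 21 and 41 at an unadjusted p under 0.05), 30 with median centring and 2 with a robust variance that follows intensity. The count over all features was 1378, and it became 11, 0, 455, 5144 and 1301 in the same order. Where both channels had to be clear, an alternative chosen after seeing the data, 2 members were called, SLC30A2 and SLC7A5, beside 962 of all features. Leaving out each array in turn gave 2 to 7. Without the anteroposterior HH35 array 7 were called, all higher anteriorly (among them SLC16A7, SLC1A3, SLC25A3, SLC25A6, SLC4A1AP and SLC7A5), without the HH37 array 3 (SLC30A2, SLC36A4 and TC218221), and without either mediolateral array 2 (SLC7A5 among them). The mediolateral count of 0 ran from 0 to 1, with TC218221 called without either anteroposterior array. Where both arrays of the tested axis stayed, 574 of all features were called along the anteroposterior axis without either mediolateral array. Along the mediolateral axis 24 were called without either anteroposterior array. A lone array of an axis is there assumed to vary like the others. The members called along the anteroposterior axis without its HH35 or HH37 array thus rest on 1 array, and no excess over all features is read from them. Members past 2-fold became 1 at anteroposterior HH35 with both channels clear, beside 234 of all features. At anteroposterior HH37 they became 10 with median centring and 5 with the value table, beside 1907 and 2235 of all features. With the value table they became 4 at mediolateral HH30, beside 899. At mediolateral HH35 they became 1 with plain subtraction and 3 with the value table, beside 193 and 713. The main setting had 250, 475, 92 and 27 of all features past 2-fold, in the same order of arrays. Ratios moving by 2-fold between stages became 9 with the value table and 1 with both channels clear on the anteroposterior axis, beside 2223 and 389 of all features. On the mediolateral axis they became 4 with plain subtraction, 5 with the value table and 1 with the mean over probes, SLC39A12, beside 597, 1300 and 144. In the main setting 475 and 145 of all features moved so far on the anteroposterior and mediolateral axis. The causes were not tested. The counts of 0 between the axes and for levels held under the alternatives run. Of 2863 alternatives for single members 2544 kept their call or moved by less than the spread of repeated control spots, 267 moved by more, 27 lost and 25 gained a call, and 0 called values reversed. No paired analysis was possible because each group has 1 array. Dim signals limit most the anteroposterior HH37 array, where both channels were clear for 82 of 118 members measured.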
